A study of Mus musculus with 18 samples.

Results

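Fibroblasts from embryos labelled Nfic knock-out were compared 1 h after transforming growth factor β1 (TGF-β1) with untreated fibroblasts from the same embryos. The comparison rests on 6 of the 18 arrays of the study, chosen by their titles: 3 arrays labelled knock-out and treated for 1 h, and 3 labelled knock-out and left untreated. The same number in the title marks the same embryo, so each treated array was set against the untreated array of its own embryo. Primary mouse embryonic fibroblasts had been isolated at day 14 after removal of the head and the liver, and had been kept for some hours in medium with an albumin supplement and an insulin, transferrin and selenium mix. TGF-β1 was given at 12.5 ng/ml for 1 h or 10 h. The whole study holds 6 groups of 3 arrays, wild-type or knock-out, each untreated, at 1 h and at 10 h, from 6 embryos, with biotin-labelled RNA hybridised to Affymetrix arrays. The labels do not give the strain, the sex of the embryos or which part of Nfic was deleted, and they do not say when the untreated cells were collected.

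TGF-β1 binds a pair of serine/threonine kinase receptors, which phosphorylate SMAD2 and SMAD3. These join SMAD4, enter the nucleus and act on target genes together with other factors. Some of the fastest targets are inhibitors of the same pathway, such as Smad7, and genes of transcription factors. In fibroblasts TGF-β1 is known for changes in growth, matrix production and contractile differentiation over hours to days. Nfic encodes nuclear factor I-C, a member of a family of DNA-binding factors that recognise TTGGC and its reverse complement, GCCAA.

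Levels are given throughout as the deposited log2 values, 1 probe set per gene, always in the order of embryos 1, 2 and 3. A change is the 1 h value minus the untreated value in log2 units, so a change of 1 is 2-fold, and its error is the standard error of the fit (SE). A gene was called when its limma p-value, after Benjamini-Hochberg adjustment for the 13679 genes tested, was under 0.05. With 1 probe set per gene, levels of different genes cannot be compared with each other. A lower level in a culture can mean fewer cells of a type or less RNA per cell, which these arrays cannot tell apart.

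The targeted gene gave no check of the genotype labels. The brightest Nfic probe set read 10.43, 9.89 and 10.72 in untreated cells and 10.65, 10.32 and 10.72 after 1 h in cells labelled knock-out, against 10.51, 10.36 and 10.49 and 10.77, 10.39 and 10.59 in wild-type cells. The knock-out and wild-type values overlapped, as they did for each of the 5 Nfic probe sets on the array. Whether any of these probe sets lies in the deleted part is not given, so the cells are called by their label. Nfic itself did not pass the test at 1 h, with a change of 0.22 ± 0.14, adjusted p = 1.

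Markers of fibroblasts were high in all 6 arrays, with the mean of 15 genes between 10.72 and 11.02 in untreated cells and between 10.75 and 11.00 at 1 h. Markers of macrophages and other leukocytes were also present. The mean of 19 such genes was 9.53, 7.78 and 8.21 in the untreated cells of embryos 1, 2 and 3 and 9.28, 7.79 and 8.13 after 1 h, so embryo 1 stood above the other embryos in both conditions. None of the 19 was called. In the 1 h comparison 18 of the 19 had a change below 0 and 8 (42.1%) were lower in all 3 embryos, against 16% of all genes tested. Means of the marker lists for endothelial, epithelial, skeletal muscle, neural and erythroid cells lay between 4.19 and 6.49, and none of their tested members was called. The 10 h array of embryo 1, which enters the error of the fit, stood apart: 270 genes differed at least 2-fold from the mean of the other 10 h arrays labelled knock-out, against 164 and 69 for embryos 2 and 3. It is left out beside the results it touches. Correlations of arrays ran from 0.987 to 0.992 among the untreated arrays, from 0.990 to 0.994 among the treated ones and from 0.995 to 0.996 within an embryo, and array medians lay between 4.76 and 4.81.

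The 1 h response was small in the number of genes and mostly a rise. Of 13679 genes tested 101 were called, which is 0.738%, and 84 of them were higher (0.614%) and 17 lower (0.124%). At least a 2-fold change was seen for 35 of the 101 (0.256% of all genes tested), 33 higher (0.241%) and 2 lower (0.0146%). The median change was 0.87 over the genes called higher, -0.81 over those called lower and -0.01 over all genes. An unadjusted p under 0.05 was found for 697 genes (5.1%). The 95% interval of the change lay inside 2-fold in either direction for 98.7% of all genes. The gene lists used below were drawn up with earlier results of these data known, so their shares called are no test of a pathway. Counts of called members stand beside the shares over all genes, 0.614% higher and 0.124% lower.

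The treated and untreated arrays did not overlap for 99 of the 101 called genes, against 8.42% of all genes tested (83 of 84 genes called higher, against 3.87%, and 16 of 17 called lower, against 4.55%). All 101 moved the same way in the 3 embryos, as did 29.5% of all genes. The genes were called on these same arrays, so both counts follow largely from the call and are no separate support for it. The genes whose arrays overlapped were F3, which encodes tissue factor, and Ddit4l, a relative of the stress gene Ddit4. F3 read 9.13, 10.01 and 9.00 in untreated cells and 9.95, 10.75 and 10.04 after 1 h. Ddit4l read 8.69, 8.10 and 8.70 in untreated cells and 7.91, 7.58 and 8.11 after 1 h. Embryo 2 stood apart in both, highest for F3 and lowest for Ddit4l in each condition. The number of called genes depended on the embryos used: it was 52 without embryo 1, 38 without embryo 2 and 25 without embryo 3, and 25 genes were called in all 3 of these fits, 23 of them higher. Without the embryo as a block 67 genes were called, 66 of them among the 101. With the block and only the 12 untreated and 1 h arrays 214 were called, and with only the 6 knock-out arrays 172. Without the 10 h array of embryo 1 it was 104, with 95 of them among the 101.

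**Figure D1:**
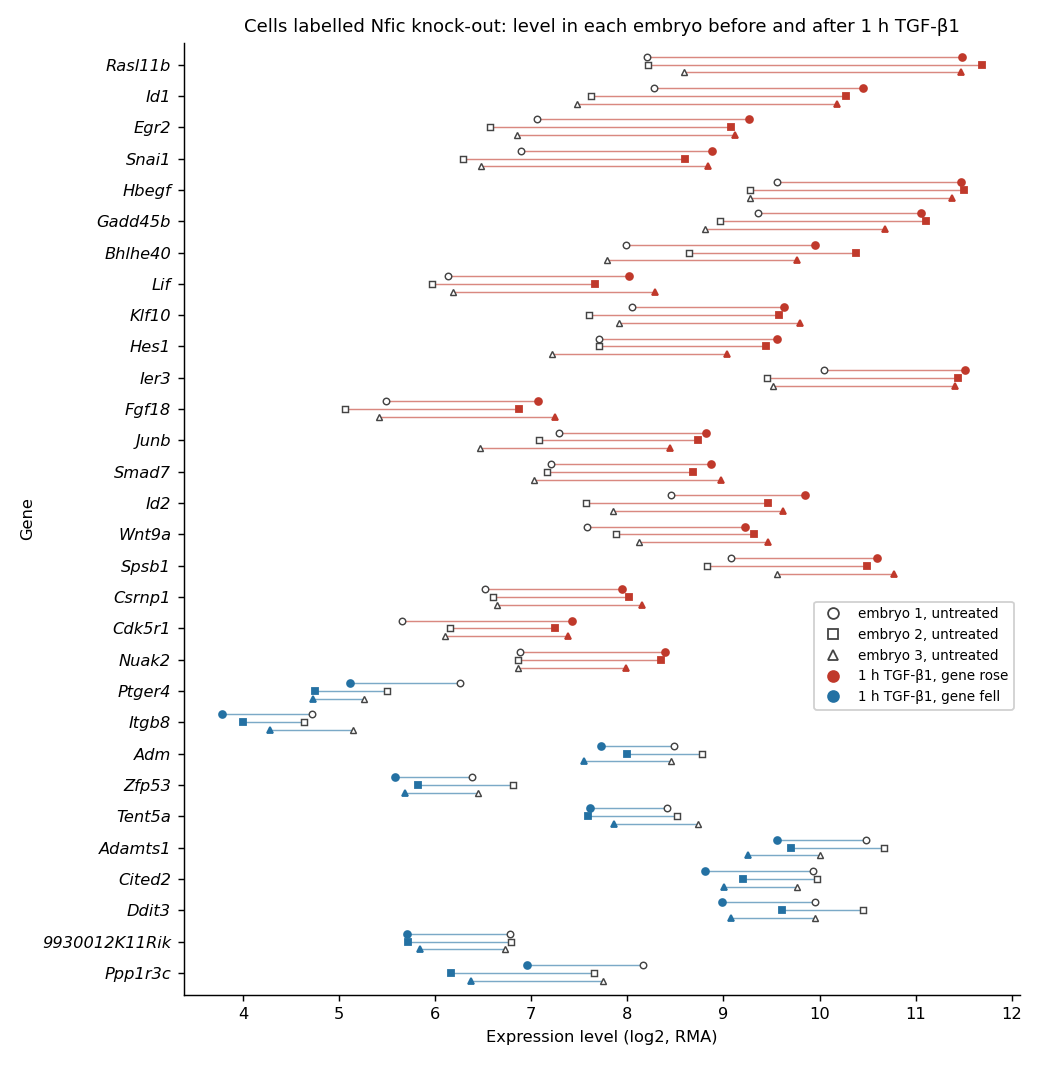
Levels (log2, x axis) of the called genes (y axis) that rose most, 20 in number, and that fell most, 10 in number, in cells labelled Nfic knock-out, with open symbols for untreated cells, filled symbols for 1 h of TGF-β1, and a line joining both arrays of each of the 3 embryos. In each of these 30 genes, which were called on these same arrays, the 3 lines run the same way. The longest belong to Rasl11b, with a mean change of 3.21.

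Inhibitors and partners of the SMAD pathway were among the genes that rose. Of 16 listed feedback genes and corepressors, 4 rose and none fell: Smad7, Skil, Smad6 and Tgif2. The list had a median change of 0.23, and 11 of 16 members were higher in all 3 embryos, against 13.5% of all genes. Smad7 encodes an inhibitory SMAD that blocks the activated TGF-β receptor. It read 7.20, 7.16 and 7.02 in untreated cells and 8.87, 8.68 and 8.97 after 1 h, a 3.27-fold rise (1.71 ± 0.11, adjusted p = 4.39e-06), and every treated array lay above every untreated one by more than 1 log2 unit. Skil encodes SnoN, a corepressor bound by SMADs. Its level went from 10.06, 10.15 and 10.25 to 11.02, 11.10 and 11.42 (1.03 ± 0.10, adjusted p = 0.000202), again without overlap.

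Smad6 encodes the inhibitory SMAD best known for restraining bone morphogenetic protein (BMP) signals. Its levels were 7.87, 7.51 and 7.35 in untreated cells and 8.75, 8.61 and 8.39 after 1 h, a 2.01-fold rise (1.01 ± 0.15, adjusted p = 0.00494). Tgif2, a homeodomain corepressor of SMADs, rose least of the 4, from 7.20, 7.07 and 7.32 to 7.57, 7.55 and 7.81 (0.45 ± 0.08, adjusted p = 0.0185). The calls of these last 2 genes were lost when an embryo was left out, with an adjusted p of up to 0.1 for Smad6 and 0.35 for Tgif2, and that of Tgif2 also without the block (0.0826).

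The components that carry the signal itself were not called. None of 12 TGF-β ligands and receptors and none of 8 SMAD signal transducers passed the test. The largest changes among the fixed members were 0.33 ± 0.14 for the ligand gene Tgfb1 and 0.32 ± 0.11 for Tgfbr1, the signalling receptor, with adjusted p of 0.943 and 0.557. Tgfbr2, the ligand-binding receptor, had a change of -0.05 ± 0.10. Smad2, Smad3 and Smad4 had changes of 0.03 ± 0.13, 0.09 ± 0.08 and 0.02 ± 0.08.

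Genes known as targets of BMP signals rose with them. Of 15 tested members of the BMP and Id list 6 (40%) rose and none fell, against 0.614% of all genes called higher, with a median change of 0.16. The Id genes encode helix-loop-helix proteins that lack a DNA-binding region and hold back basic helix-loop-helix factors, and all 4 of them rose. Id1 read 8.28, 7.62 and 7.47 in untreated cells and 10.45, 10.28 and 10.18 after 1 h, a 5.71-fold rise (2.51 ± 0.17, adjusted p = 5.61e-06). The treated Id1 values were close together while the untreated ones ranged more widely, with embryo 1 highest. Id2 went from 8.45, 7.57 and 7.86 to 9.85, 9.46 and 9.62 (1.69 ± 0.20, adjusted p = 0.00113). Id3 went from 10.48, 9.61 and 9.96 to 11.23, 11.14 and 11.30 (1.21 ± 0.22, adjusted p = 0.0207), and Id4 from 7.64, 7.31 and 6.56 to 8.59, 8.72 and 8.06 (1.29 ± 0.21, adjusted p = 0.0122).

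The Id genes differed between embryos in size and not in direction. Id3 changed by 0.75, 1.53 and 1.35 in embryos 1, 2 and 3, one of the 3 widest ranges among the called genes, and embryo 1, with the highest untreated level of Id1, Id2 and Id3, had the smallest rise in each of these. The other members that rose were Msx2, a homeobox gene, from 6.44, 6.76 and 5.88 to 7.21, 7.83 and 6.86 (0.94 ± 0.16, adjusted p = 0.0158), and Atoh8, a basic helix-loop-helix gene (0.84 ± 0.15, adjusted p = 0.0179). Of the 6, Id1 was the one called in all 3 fits with an embryo left out, while the highest adjusted p was 0.0551 for Id2, 0.257 for Id3, 0.207 for Id4, 0.257 for Msx2 and 0.201 for Atoh8. Without the block Id2, Id3, Msx2 and Atoh8 were not called (adjusted p of 0.0582, 0.0832, 0.27 and 0.0597).

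Immediate early genes responded in part. Of 25 listed Egr, Nr4a and similar genes 7 (28%) rose and none fell, against 0.614% of all genes called higher. The median change was 0.45, and 17 (68%) were higher in all 3 embryos, against 13.5% of all genes. Egr2 encodes a zinc finger transcription factor of the early growth response family. It read 7.06, 6.57 and 6.85 in untreated cells and 9.26, 9.08 and 9.12 after 1 h, a 5.02-fold rise (2.33 ± 0.15, adjusted p = 5.61e-06). Csrnp1, whose product is a nuclear protein also induced by axin, went from 6.51, 6.60 and 6.65 to 7.94, 8.01 and 8.15 (1.45 ± 0.11, adjusted p = 2.71e-05), and Ier5 from 9.18, 9.00 and 8.81 to 10.11, 10.36 and 10.05 (1.17 ± 0.10, adjusted p = 8.41e-05). For these 3 genes the treated and untreated arrays were far apart and no embryo decided the call.

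Ier3, which encodes a survival protein induced by stress and growth factors, read 10.05, 9.45 and 9.52 in untreated cells and 11.52, 11.44 and 11.41 after 1 h (1.78 ± 0.27, adjusted p = 0.00651). The 3 treated arrays were nearly level, and embryo 1 started highest and rose least. Nr4a1, an orphan nuclear receptor, read 7.82, 7.30 and 7.37 in untreated cells and 9.26, 8.15 and 8.96 after 1 h (1.29 ± 0.26, adjusted p = 0.0433), with a wide range of changes over the embryos (1.44, 0.85 and 1.59). The other risers of the list were Ier5l (0.95 ± 0.15, adjusted p = 0.00938) and Zfp36 (0.69 ± 0.13, adjusted p = 0.0231), which encodes tristetraprolin, a protein that speeds the decay of AU-rich messages. Left-out embryos raised the adjusted p to 0.157 for Ier3, 0.621 for Nr4a1, 0.167 for Ier5l and 0.521 for Zfp36, and without the block Nr4a1 (0.174) and Zfp36 (0.476) were not called. Nr4a1 was also not called without the 10 h array of embryo 1 (adjusted p = 0.0584).

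Egr3 was the larger of 2 rises of at least 2-fold that did not pass the test. It read 6.73, 5.91 and 6.30 in untreated cells and 7.72, 6.70 and 7.82 after 1 h (1.10 ± 0.34, adjusted p = 0.382), so the groups overlapped. Of 12 tested AP-1 and Maf genes 2 rose and none fell: Junb, an AP-1 subunit, from 7.29, 7.08 and 6.46 to 8.81, 8.73 and 8.45 (1.72 ± 0.17, adjusted p = 0.000242), and Mafk, a small Maf factor (0.58 ± 0.09, adjusted p = 0.0112; highest adjusted p 0.175 with an embryo left out). Fos, the classical partner of Jun proteins, had levels of 8.71, 7.74 and 7.84 in untreated cells and 8.76, 7.86 and 8.09 after 1 h and a change of 0.14 ± 0.14, adjusted p = 1. None of 17 MAP kinase phosphatase and Sprouty genes was called, with a median change of 0.05.

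**Figure D2:**
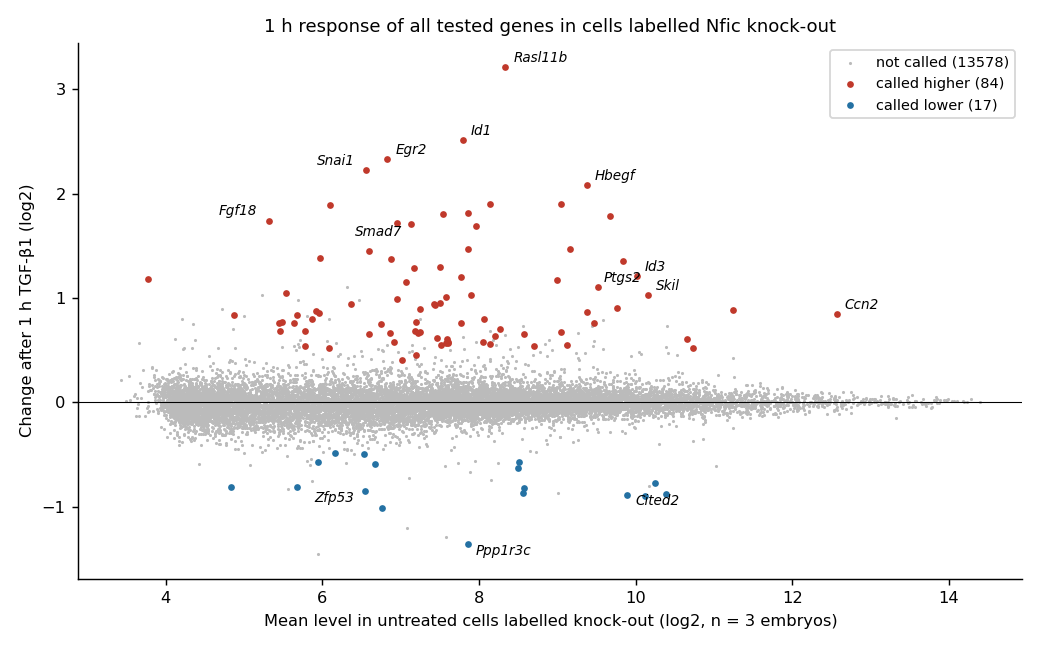
Change after 1 h (log2, y axis) against the mean untreated level (log2, x axis, n = 3 embryos) of each of the 13679 genes tested in cells labelled Nfic knock-out, in red where called higher, in blue where called lower and in grey otherwise. The 84 genes called higher reach 3.21 and the 17 called lower reach -1.36, and both lie over most of the range of levels.

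Promoter sequences are shown for Smad6 and Zfp52, which hold a SMAD palindrome, and for Egr2 and Zfp36, which hold a CArG box, the latter being the element known to bind serum response factor, which drives many immediate early genes. They come from RefSeq, assembly GRCm38.p6, cover 250 bases before the annotated start and 30 after it, and run 5′ to 3′ on the strand of the gene, with the motif in capitals. Egr2 has 5 annotated starts and the window shown is of one of them. The Smad6 window is chr9:64022030-64022309 (minus strand), with the palindrome beginning 4 bases before the start. The Zfp52 window is chr17:21535289-21535568 (plus strand), with the palindrome 115 bases before the start. The windows of Egr2 at chr10:67537619-67537898 (plus strand) and Zfp36 at chr7:28379199-28379478 (minus strand) have the CArG box 72 and 58 bases before the start. Smad6, Egr2 and Zfp36 rose, and Zfp52, one of the numbered zinc finger genes, fell. The window of Mideas, a called gene in none of the lists, also holds a CArG box and is not shown.
Smad6: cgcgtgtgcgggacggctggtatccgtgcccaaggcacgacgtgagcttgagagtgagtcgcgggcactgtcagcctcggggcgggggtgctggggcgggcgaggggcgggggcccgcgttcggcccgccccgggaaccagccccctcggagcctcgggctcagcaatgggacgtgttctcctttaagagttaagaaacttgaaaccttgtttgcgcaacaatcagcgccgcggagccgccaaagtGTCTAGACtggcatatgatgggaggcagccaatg
Zfp52: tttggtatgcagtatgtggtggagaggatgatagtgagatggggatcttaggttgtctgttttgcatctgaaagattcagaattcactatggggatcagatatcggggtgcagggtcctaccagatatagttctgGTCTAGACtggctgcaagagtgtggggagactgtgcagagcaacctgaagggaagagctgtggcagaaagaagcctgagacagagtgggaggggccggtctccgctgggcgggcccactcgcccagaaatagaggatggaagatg
Egr2: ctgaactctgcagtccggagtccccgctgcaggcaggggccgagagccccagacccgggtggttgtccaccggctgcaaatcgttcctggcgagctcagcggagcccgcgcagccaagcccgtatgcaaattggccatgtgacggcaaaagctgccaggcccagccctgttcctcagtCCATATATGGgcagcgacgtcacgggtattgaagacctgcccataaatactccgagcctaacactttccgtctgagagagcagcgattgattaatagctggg
Zfp36: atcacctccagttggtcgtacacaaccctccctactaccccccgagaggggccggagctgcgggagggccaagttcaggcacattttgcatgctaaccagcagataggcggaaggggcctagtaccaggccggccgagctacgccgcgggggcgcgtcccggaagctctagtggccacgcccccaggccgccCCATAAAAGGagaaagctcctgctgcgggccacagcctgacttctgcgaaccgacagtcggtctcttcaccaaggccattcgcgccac

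Motifs were counted on both strands in the windows from 250 bases before to 50 after each start, which were at hand for 66 of the 84 genes called higher, 15 of the 17 called lower and 10989 of the genes tested. The palindrome GTCTAGAC, to which SMAD3 and SMAD4 bind, lay in 1 promoter of a gene called higher, 1 of a gene called lower and 0.328% of the genes tested (0.213% of all windows). A gene with several starts was counted once if any of its windows held the motif, while the share of all windows counts each window. GGCGCC, a GC-rich element also bound by SMADs, lay in 30.3% of the genes called higher, 6.67% of those called lower (1 of 15) and 23.5% of those tested. Counted per window it was in 23.6% of the windows of genes called higher, 19.9% of those of genes tested and 11.9% of all windows. The median GC content was 64% for genes called higher and 60.3% for those tested. The CArG box lay in 3 genes called higher (4.55%), Egr2, Zfp36 and Mideas, and in 1.58% of those tested (1.63% of all windows). The AP-1 site TGACTCA was found for 7.58% of the genes called higher and 4.83% of those tested (5.2% of all windows), and TGACGTCA, the cAMP response element, for 1.52% and 3.27% (1.79% of all windows). The full NFI palindrome, TTGGC and its reverse complement with 5 bases between, was in none of the promoters of called genes. It was in 4 of the genes tested (0.0365% of all windows). TTGGCA was in 15.2% of the genes called higher, 20% of those called lower and 14% of those tested (14.1% of all windows). A match describes letters in these windows only.

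Transcription factor genes outside the immediate early list also rose. Snai1 encodes Snail, a zinc finger repressor of epithelial genes. It read 6.89, 6.29 and 6.47 in untreated cells and 8.88, 8.60 and 8.84 after 1 h, a 4.67-fold rise (2.22 ± 0.12, adjusted p = 1.21e-06). With the forkhead gene Foxc2, which went from 7.89, 7.66 and 7.75 to 8.94, 8.97 and 8.97 (1.20 ± 0.10, adjusted p = 4.36e-05), it made 2 of 10 tested genes of the Snail, Zeb and Twist list that rose, and none fell. Klf10, also known as TIEG1 for its early induction by TGF-β, read 8.05, 7.60 and 7.91 in untreated cells and 9.63, 9.58 and 9.80 after 1 h (1.81 ± 0.15, adjusted p = 4.36e-05). Klf13 rose less, by 0.61 ± 0.11 (adjusted p = 0.0218, up to 0.375 with an embryo left out), and no other of the 13 Krüppel-like factors was called. Of 2 other Klf13 probe sets one changed by 0.48 ± 0.12 and one by -0.05 ± 0.11, and neither passed.

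Among the Notch and related genes 3 of 15 (20%) rose and none fell, against 0.614% of all genes called higher. Hes1, a repressor and classical Notch target, read 7.70, 7.70 and 7.21 in untreated cells and 9.55, 9.45 and 9.04 after 1 h (1.81 ± 0.14, adjusted p = 3.74e-05). Bhlhe40, a basic helix-loop-helix repressor, read 7.98, 8.64 and 7.79 in untreated cells and 9.95, 10.38 and 9.77 after 1 h (1.90 ± 0.21, adjusted p = 0.000507), and here embryo 2 was the highest before and after treatment. Lfng encodes an enzyme that adds sugars to Notch. Its levels were 5.83, 5.24 and 5.82 in untreated cells and 6.47, 6.08 and 6.61 after 1 h (0.76 ± 0.13, adjusted p = 0.0143; up to 0.194 with an embryo left out and 0.206 without the block). Scx, which encodes scleraxis, a factor of tendon cells, was the riser among 12 tendon, cartilage and bone regulators, from 5.92, 5.71 and 5.99 to 6.54, 6.61 and 6.88 (0.80 ± 0.12, adjusted p = 0.00494; up to 0.147 with an embryo left out and 0.196 without the block).

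Secreted growth factors formed the next group. Of 27 tested ligand genes 6 (22.2%) rose and none fell, against 0.614% of all genes called higher, while the median change of the list was 0.08. Hbegf encodes heparin-binding EGF-like growth factor, a ligand of the EGF receptor. It read 9.56, 9.28 and 9.28 in untreated cells and 11.47, 11.51 and 11.38 after 1 h, a 4.22-fold rise (2.08 ± 0.11, adjusted p = 1.21e-06). Wnt9a went from 7.58, 7.88 and 8.12 to 9.23, 9.32 and 9.46 (1.47 ± 0.15, adjusted p = 0.000213), and Fgf18 from 5.49, 5.06 and 5.41 to 7.07, 6.87 and 7.25 (1.74 ± 0.22, adjusted p = 0.00178). No treated array of the 3 genes reached down to an untreated one, and Fgf18 was not called without embryo 2 or embryo 3 (adjusted p up to 0.0741).

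The smaller rises of ligand genes were those of Vegfa, Edn1 and Fgf21. Vegfa, the angiogenic factor, read 7.70, 7.99 and 7.63 in untreated cells and 8.51, 8.62 and 8.45 after 1 h (0.76 ± 0.11, adjusted p = 0.00616). Edn1, which encodes the precursor of the vasoconstrictor endothelin-1, rose by 0.86 ± 0.14 (adjusted p = 0.0112), and Fgf21, a metabolic hormone, by 0.75 ± 0.13 (adjusted p = 0.0143). With an embryo left out their adjusted p reached 0.153, 0.252 and 0.215. The PDGF ligands and receptors gave no call among 7 genes, with changes of 0.31 ± 0.12 for Pdgfa, -0.11 ± 0.12 for Pdgfra and 0.17 ± 0.10 for Pdgfrb. Pdgfb, a ligand of these receptors that was named after its values were seen, had the largest change of the 7, with means of 5.81 untreated and 6.63 at 1 h (0.82 ± 0.33, adjusted p = 0.806). Without the 10 h array of embryo 1 it passed, with 0.82 ± 0.13 (adjusted p = 0.0128).

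Cytokine and inflammatory genes were mostly not called. Lif, a cytokine of the interleukin-6 family, was the riser among 14 such genes. It read 6.13, 5.97 and 6.18 in untreated cells and 8.02, 7.66 and 8.28 after 1 h (1.89 ± 0.32, adjusted p = 0.0141, up to 0.147 with an embryo left out). Without the 10 h array of embryo 1, a fit chosen after seeing the data, the change of Lif was 1.89 ± 0.18 (adjusted p = 0.000215). Ptgs2, which encodes the inducible cyclooxygenase COX-2, rose alone among 20 tested chemokine, prostaglandin and NF-κB genes, from 9.47, 9.89 and 9.17 to 10.39, 10.72 and 10.73 (1.10 ± 0.15, adjusted p = 0.00314; 0.0869 without embryo 3). That list had a median change of -0.10. The 10 h array of embryo 1 enters the error of the fit, and it stood apart in this list, with a mean of 9.95 against 7.20 and 7.21 in the 10 h arrays of embryos 2 and 3. The median standard error of the 20 changes was 0.43 with this array and 0.15 without it. Without it Nfkbiz passed as lower, and Ptgs2 and Nfkbiz were the calls among the 20, in a fit that called 0.76% of all genes.

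Of 3 falls of at least 2-fold that did not pass the test, that of Ccl3, a chemokine of macrophages, went from 7.27, 5.17 and 5.39 to 4.70, 4.38 and 4.37 (-1.46 ± 1.05, adjusted p = 1). Nfkbiz, an inducible regulator of NF-κB, went from 7.28, 8.23 and 7.22 to 6.04, 6.46 and 6.35 (-1.29 ± 0.58, adjusted p = 0.952). Ch25h, a cholesterol hydroxylase, went from 7.33, 7.31 and 6.59 to 6.25, 5.60 and 5.76 (-1.20 ± 0.47, adjusted p = 0.755). In each of the 3 genes every treated value lay below every untreated one, and the untreated embryos differed widely. At 10 h embryos 1, 2 and 3 read 11.52, 3.76 and 4.03 for Ccl3, 10.32, 7.23 and 7.10 for Nfkbiz and 10.44, 7.22 and 7.46 for Ch25h, so embryo 1 was far above the others. In the fit without that 10 h array, which was added after seeing the data, the changes had a smaller error. They were -1.46 ± 0.34 (adjusted p = 0.109) for Ccl3, -1.29 ± 0.18 (adjusted p = 0.0036) for Nfkbiz and -1.20 ± 0.24 (adjusted p = 0.0419) for Ch25h, so Nfkbiz and Ch25h passed and Ccl3 did not. The macrophage markers had changes of -0.25, 0.00 and -0.08 in embryos 1, 2 and 3 on average, and their part in these values was not tested.

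The largest rise of all was in a gene of a small GTPase. Rasl11b encodes a Ras-like protein of little-known function. Its level went from 8.21, 8.22 and 8.58 to 11.48, 11.69 and 11.47, a 9.26-fold rise (3.21 ± 0.17, adjusted p = 1.21e-06). All 3 treated arrays were close to each other, and the changes by embryo were 3.27, 3.48 and 2.88.

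Matrix and cytoskeletal genes, which TGF-β1 is known to raise later, were hardly called at 1 h. The risers were 2 of 11 CCN and matricellular genes: Ccn1, or Cyr61, from 11.30, 11.25 and 11.19 to 12.15, 12.04 and 12.20 (0.88 ± 0.16, adjusted p = 0.0207), and Ccn2, or CTGF, from 12.82, 12.36 and 12.53 to 13.45, 13.40 and 13.39 (0.84 ± 0.13, adjusted p = 0.00651). Both encode secreted proteins of the matrix, and neither overlapped. With an embryo left out the adjusted p reached 0.387 and 0.148. None of 16 actin and contractile genes and none of 23 collagen, fibronectin and crosslinker genes was called, with medians of 0.03 and 0.04. Col1a1, a chain of type I collagen, had a change of 0.05 ± 0.11. For Acta2, the smooth muscle actin gene, the probe sets disagreed. The brightest, which stands for the gene here, read 13.95, 13.99 and 13.97 untreated and 13.94, 14.05 and 14.00 at 1 h (0.02 ± 0.07), near the highest value of the series. A dimmer one read 5.40, 5.40 and 5.25 untreated and 6.00, 7.04 and 6.46 at 1 h, with no overlap (1.15 ± 0.27, adjusted p = 0.143 over all probe sets), and the remaining one had a change of 0.35 ± 0.42 (adjusted p = 1).

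Among cell cycle and growth arrest genes the risers were of the Gadd45 family. Gadd45b and Gadd45g encode stress sensors that act on MAP kinase cascades. Gadd45b read 9.36, 8.96 and 8.81 in untreated cells and 11.06, 11.10 and 10.69 after 1 h (1.90 ± 0.19, adjusted p = 0.000249), and Gadd45g went from 9.93, 9.73 and 9.86 to 11.15, 11.32 and 11.09 (1.35 ± 0.13, adjusted p = 0.000167). The CDK inhibitor genes Cdkn1a (p21) and Cdkn2b (p15) had changes of 0.14 ± 0.08 and 0.01 ± 0.11, both with adjusted p of 1. In all, 2 of 14 genes of this list rose and none fell.

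Several genes with large rises were in none of the lists. Spsb1, which encodes an adaptor of a ubiquitin ligase, read 9.08, 8.83 and 9.56 in untreated cells and 10.60, 10.49 and 10.78 after 1 h (1.47 ± 0.16, adjusted p = 0.000507), with embryo 3 highest in both conditions. Cdk5r1, the activator of CDK5, went from 5.66, 6.16 and 6.10 to 7.42, 7.25 and 7.38 (1.38 ± 0.12, adjusted p = 8.41e-05). Nuak2, a kinase related to AMPK, went from 6.89, 6.87 and 6.86 to 8.39, 8.35 and 7.99 (1.37 ± 0.17, adjusted p = 0.00165), and its relative Nuak1 rose too (0.91 ± 0.15, adjusted p = 0.0141; up to 0.181 with an embryo left out and 0.0826 without the block). Pim1, a serine/threonine kinase, rose by 1.15 ± 0.11 (adjusted p = 0.000215). In the list of 14 clock genes, by contrast, the riser was Nfil3, a repressor that acts on the circadian clock. Its rise was smaller (0.75 ± 0.13, adjusted p = 0.0141, up to 0.293 with an embryo left out).

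**Figure D3:**
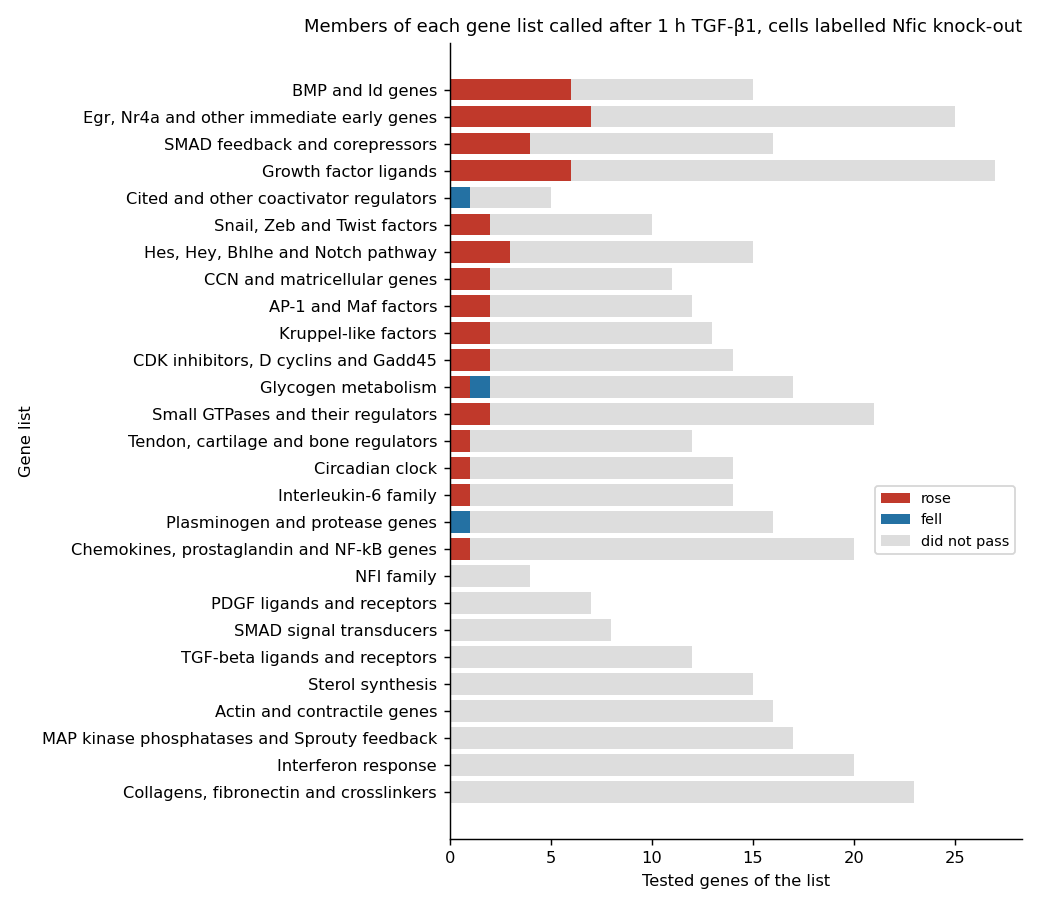
Number of tested genes (x axis) of 27 of the 28 gene lists (y axis) that rose (red), fell (blue) or did not pass (grey) after 1 h of TGF-β1 in cells labelled Nfic knock-out, in order of the share called. The BMP and Id list has the largest share, 6 of 15, and 9 of the lists, from the NFI family to the collagens, have no called member. Over all genes tested 0.738% were called. The lists were drawn up with earlier results of these data known, so their order is no test of a pathway. The list of 84 zinc finger genes, of which 3 fell, is left out of the plot for its size.

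Glycogen metabolism held the gene with the largest fall that was called. Ppp1r3c encodes a subunit that brings protein phosphatase 1 to glycogen. It read 8.17, 7.65 and 7.75 in untreated cells and 6.95, 6.16 and 6.37 after 1 h, a 2.57-fold fall (-1.36 ± 0.18, adjusted p = 0.00227), with embryo 1 above the others in both conditions and no overlap. Its relative Ppp1r3d, which has the same kind of role, rose (0.68 ± 0.10, adjusted p = 0.00715), and the other 15 tested genes of the list were not called. Without embryo 3 the adjusted p of Ppp1r3c was 0.0807, and with an embryo left out that of Ppp1r3d reached 0.103.

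The other falls were of genes with varied roles. Cited2, a coactivator-binding protein that restrains HIF-1, went from 9.93, 9.98 and 9.76 to 8.81, 9.20 and 9.00 (-0.89 ± 0.12, adjusted p = 0.00258), and was the called gene among 5 of its list. Ddit3, which encodes the stress factor CHOP, went from 9.95, 10.45 and 9.96 to 8.98, 9.61 and 9.08 (-0.90 ± 0.14, adjusted p = 0.00917), and embryo 2 was highest in both conditions. Adamts1, a secreted protease, changed by -0.88 ± 0.16 (adjusted p = 0.0266), the called gene of 16 protease and plasminogen genes. Tent5a, a poly(A) polymerase, changed by -0.87 ± 0.15 (adjusted p = 0.0138).

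Adm, which encodes the vasodilator adrenomedullin, was lower at 1 h, with changes of -0.77, -0.78 and -0.90 by embryo (-0.82 ± 0.14, adjusted p = 0.0154). Itgb8, an integrin chain that activates latent TGF-β, went from 4.72, 4.63 and 5.14 to 3.78, 4.00 and 4.28 (-0.81 ± 0.15, adjusted p = 0.0223). This was a dim probe set: all its treated values, and the untreated 4.72 and 4.63, lay below the array medians of 4.76 to 4.81. Ptger4, a prostaglandin E2 receptor, went from 6.26, 5.50 and 5.26 to 5.11, 4.75 and 4.73 (-0.81 ± 0.16, adjusted p = 0.0383), with the largest fall in embryo 1 and no overlap. The second largest called fall was that of 9930012K11Rik, a gene known by its clone name, from 6.78, 6.79 and 6.73 to 5.71, 5.72 and 5.84 (-1.01 ± 0.12, adjusted p = 0.00107). With an embryo left out it kept its call, while the adjusted p reached 0.0586 for Cited2, 0.157 for Ddit3, 0.364 for Adamts1, 0.145 for Tent5a, 0.29 for Adm, 0.206 for Itgb8 and 0.439 for Ptger4. Without the block Ddit3 (0.0826), Adamts1 (0.0993), Itgb8 (0.245) and Ptger4 (0.622) were not called.

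A set of zinc finger genes with numbered names was lower on balance by a small amount. Most such genes encode repressors with many C2H2 zinc fingers. The list was drawn up with the fall of Zfp53 known. Of 84 tested members 3 fell and none rose (3.57% called, against 0.124% of all genes called lower). Zfp53 read 6.38, 6.81 and 6.45 in untreated cells and 5.58, 5.82 and 5.69 after 1 h (-0.85 ± 0.11, adjusted p = 0.00163), with no overlap. Zfp52 went from 8.52, 8.61 and 8.42 to 7.69, 8.17 and 7.96 (-0.58 ± 0.12, adjusted p = 0.0433; up to 0.439 with an embryo left out and 0.0638 without the block), and Zfp566 from 6.19, 6.21 and 6.10 to 5.46, 5.82 and 5.76 (-0.48 ± 0.10, adjusted p = 0.0488; up to 0.597 and 0.278). Without the 10 h array of embryo 1 the adjusted p of Zfp566 was 0.0671.

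The median change of the list was -0.14, against -0.01 over all genes. Its members were below 0 in 73 of 84 cases, and 37 of them (44%) were lower in all 3 embryos, against 16% of all genes, while 3 (3.57%) were higher in all 3, against 13.5%. Over all 289 tested genes whose symbol is Zfp and a number, which include other kinds of zinc finger such as Zfp36, the median change was -0.11. By embryo the median was -0.15, -0.08 and -0.12, against -0.03, 0.01 and -0.01 over all genes. In the wild-type cells the median of the same 289 genes was -0.14. Of the 289 genes 4 fell and 2 rose, where 0.124% of all genes were called lower and 0.614% higher. In all 3 embryos 40.8% of the 289 were lower, against 16% of all genes.

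Neither the NFI family nor the sterol synthesis and interferon lists gave a call. The changes were 0.14 ± 0.12 for Nfia, 0.19 ± 0.18 for Nfib and 0.02 ± 0.18 for Nfix, with adjusted p of 1 for each. No call was made among 15 genes of sterol synthesis and 20 interferon response genes, with medians of -0.01 and -0.05.

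The 3 embryos gave responses of like size. The median rise of the 84 genes was 0.81, 0.93 and 0.92 in embryos 1, 2 and 3, and the median fall of the 17 was -0.83, -0.77 and -0.74. Embryo 1 had the largest rise for 19 of the 84 genes, embryo 2 for 35 and embryo 3 for 30, while embryo 1 had the largest fall for 10 of the 17. The highest minus the lowest change over the embryos had a median of 0.30 over the called genes and 0.25 over all genes. It was under 0.5 for 85 of the 101, and widest for Mfsd2a, a lipid transporter that went from 4.92, 5.23 and 4.46 to 5.33, 5.96 and 5.83 (0.83 ± 0.16, adjusted p = 0.0254; up to 0.397 with an embryo left out and 0.343 without the block).

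Other probe sets of the called genes mostly moved alike. Of the 101 genes 52 had another tested probe set, 71 in all, and 67 of these had the same sign. A call with the same sign was made for 33 of the 71 and a call with the opposite sign for none, in a test of 29020 probe sets of which 160 were called (0.551%). The called genes were also short in the genome: by RefSeq the median length was 11.7 kb for the genes called higher and 5.64 kb for those called lower, against 22 kb for the genes tested.

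Wild-type cells responded to 1 h of TGF-β1 as well, and no gene was called for a difference between the genotypes. In wild-type cells 113 genes were called (0.826%), 79 of which were also called in the cells labelled knock-out, 68 higher and 11 lower in both. These make 78.2% of the genes called in the cells labelled knock-out and 69.9% of those called in wild type. Each of the 22 genes that were called in the cells labelled knock-out and not in wild type had the same sign in wild type. Of the 34 genes called in wild type alone, 33 had the same sign in the cells labelled knock-out, and the exception was Epor.

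The difference itself, tested as the interaction of genotype and treatment in limma, gave 0 calls, with 359 genes (2.62%) at an unadjusted p under 0.05 and a smallest adjusted p of 1. That share is below the 0.05 of the threshold itself, so the test may be conservative. With only the 12 untreated and 1 h arrays 1021 genes were at an unadjusted p under 0.05, again with 0 calls. The absence of calls does not show that the genotypes responded alike. The 95% interval of the difference lay inside 2-fold for 97.1% of all genes and for 98 of the 101. A bound of 2-fold is wider than the median called change, 0.87 for genes called higher and -0.81 for those called lower. For many called genes it therefore cannot show that both genotypes responded alike. Rasl11b rose by 3.25 ± 0.17 in wild type, and the difference, knock-out minus wild type, had an interval of -0.57 to 0.48. That interval was -0.50 to 0.16 for Smad7, -0.36 to 0.67 for Id1, -0.37 to 0.38 for Snai1 and -0.36 to 0.32 for Hbegf. The smallest unadjusted p of the difference among the 101 genes was 0.0532, for Lfng, which changed by 0.37 ± 0.13 in wild type (adjusted p = 0.364). Of the 84 risers 53 had a smaller and 31 a larger rise in the cells labelled knock-out.

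**Figure D4:**
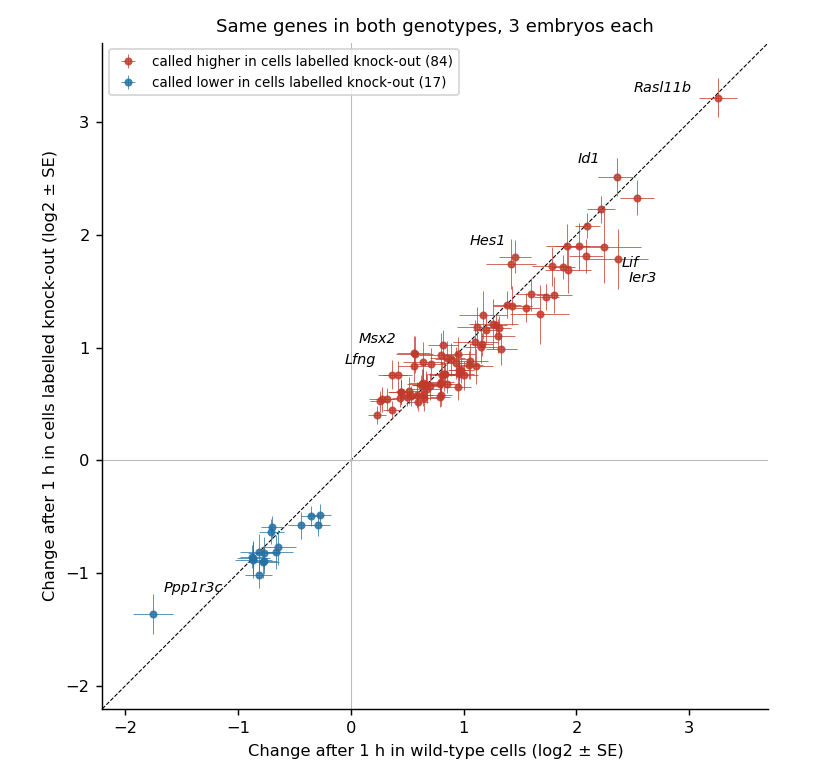
Change after 1 h in cells labelled knock-out (y axis) against the change in wild-type cells (x axis), both log2 with bars of 1 SE from the fit on 3 embryos each, for the 84 genes called higher (red) and the 17 called lower (blue) in cells labelled knock-out; the dashed line marks equal changes. All 101 genes have the same sign on both axes, from Ppp1r3c (-1.36 and -1.75) to Rasl11b (3.21 and 3.25).

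The 10 h arrays of the same embryos place the 1 h levels in time, and for some genes the 1 h mean was the highest of the 3 conditions. Times between 1 h and 10 h were not sampled, so a peak cannot be placed. The 1 h and 10 h changes share their untreated arrays, so levels are given side by side and no test is made. Smad6 had means of 7.58 ± 0.27 (SD, n = 3) untreated, 8.58 ± 0.18 at 1 h and 7.02 ± 0.21 at 10 h. Id1 had 7.79 ± 0.43, 10.30 ± 0.14 and 8.37 ± 0.34, and Id3 10.01 ± 0.44, 11.22 ± 0.08 and 9.38 ± 0.57. Rasl11b stood at 8.34 ± 0.22, 11.55 ± 0.13 and 9.50 ± 0.49. In these genes the 10 h mean was below the 1 h mean, and for Smad6 and Id3 it was below the untreated mean.

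Other genes were higher still at 10 h. Hbegf had means of 9.37 ± 0.16, 11.45 ± 0.07 and 12.98 ± 0.09 (SD, n = 3), and Egr2 6.83 ± 0.25, 9.15 ± 0.10 and 10.62 ± 0.15. Ptgs2 went through 9.51 ± 0.36, 10.61 ± 0.19 and 12.49 ± 0.19, and Vegfa through 7.77 ± 0.19, 8.53 ± 0.09 and 10.32 ± 0.09. Skil had close means, 11.18 ± 0.21 at 1 h and 11.12 ± 0.09 at 10 h. Among the genes that fell, Ppp1r3c stood at 7.86 ± 0.27, 6.50 ± 0.41 and 4.08 ± 0.17, lower at each time, and Ddit3 at 10.12 ± 0.29, 9.22 ± 0.34 and 9.91 ± 0.21, near its untreated level at 10 h.

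**Figure D5:**
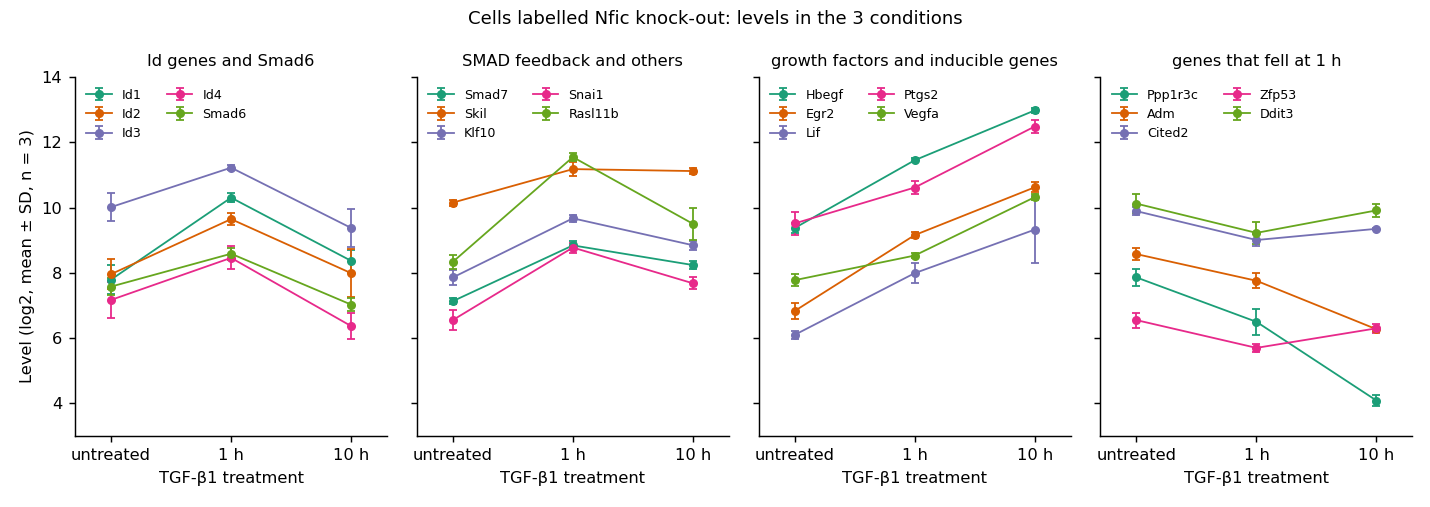
Level (log2, y axis, mean ± SD over 3 embryos) in untreated cells and after 1 h and 10 h of TGF-β1 (x axis, not to scale in time) for 20 genes in cells labelled Nfic knock-out, in 4 panels. Of the 3 conditions the Id genes and Smad6 are highest at 1 h, Smad6 with means of 7.58 ± 0.27, 8.58 ± 0.18 and 7.02 ± 0.21. The panel with Hbegf and Ptgs2 is higher still at 10 h.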

How the data were processed

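Biotin-labelled RNA of the cells was hybridised to Affymetrix arrays, 1 array per embryo and condition. The authors made the deposited log2 values, 1 per probe set, with RMA per the submitters' processing notes, with no version stated there. This method corrects the background, sets all arrays to a common distribution and combines the probes of a set, and changes of very bright and dim probes may be compressed. The deposited values were used as they stand.

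Of 45101 probe sets 34958 carried 1 gene symbol, 932 several and 9211 none. Each gene was taken at its brightest probe set over the 18 arrays, and 13679 of 18194 genes were tested, those above percentile 40 of their array in 3 or more arrays. limma 3.58.1 (R 4.3.3) was fitted over all 18 arrays with embryo as a block and 8 residual degrees of freedom, which shares 1 estimate of spread across both genotypes and times. The block rests on the labels, by which the same number is the same embryo; deviations of the untreated and 1 h arrays of one embryo correlated by 0.592, 0.684 and 0.656. Arrays have no sequencing depth, and their number limits the precision: the 95% interval of a change reached 0.24 to either side in the median. The members and gene lists were chosen with earlier results of these data known. Named were the 20 largest rises, the 10 largest falls, up to 4 called genes of each list, a fixed set, the 5 smallest p-values of the genotype difference and the 3 widest ranges over embryos, and other genes were chosen after their values were seen. Promoter sequences were matched by gene in a RefSeq table (GRCm38.p6). The fit was tested on simulated data, and some genes are not reported here. Alternatives were fits without the block or on fewer arrays, other filters, quantile normalization, robust variances, another probe set per gene, and leaving out each embryo. The fit without the 10 h array of embryo 1 labelled knock-out was chosen after seeing the data.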

Additional observations from a re-analysis of the deposited data

Results flagged for a closer look

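In 423 genes (3.09% of those tested) every embryo labelled knock-out moved one way at 1 h and every wild-type embryo the other way, and none of the 423 was called in the cells labelled knock-out. The 7 named genes among them were Nfia with a change of 0.14 in cells labelled knock-out, Smad3 with 0.09, Lcn8 with -0.31, Epor with -0.11, Trav9d-3 with -0.30, Csf2rb2 with -0.26 and D530017H19Rik with -0.31. The genotype difference itself was tested in limma and passed for none of them, with an adjusted p of 1, and Epor had a wild-type call, with 0.51 ± 0.10 (adjusted p = 0.0333). The last 5 were named for having the smallest p-values of that test. With 3 embryos per genotype, opposite signs can also arise without an effect, and whether 3.09% exceeds that share was not tested. Lcn8, D530017H19Rik and Csf2rb2 were dim, with untreated means of 4.15, 4.46 and 4.49 in cells labelled knock-out, below the array medians of 4.76 to 4.81.

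Among 3632 tested probe sets without a gene name 21 were called (0.578%), 18 higher and 3 lower, when 29020 probe sets were tested together, of which 160 were called (0.551%). All 21 had the same sign in wild-type cells and 13 were called there.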

How the results depend on the processing

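The number of genes called in the cells labelled knock-out, 101 with the embryo as a replicate block, was 67 with no replicate block, 214 on the 12 untreated and 1 h arrays with the replicate block and 172 on the 6 knock-out arrays with it; 66, 101 and 96 of these were among the 101. In wild type the 12-array fit called 375 in place of 113. Leaving out 1 embryo gave 25 to 116 genes in the cells labelled knock-out, 21 to 36 of at least 2-fold, 51 to 115 in wild type, and 0 for the genotype difference; without embryo 3 labelled knock-out the 2-fold count was 21, and without wild-type embryos 1 and 3 the wild-type count was 51 and 62. Each of these fits has fewer arrays or another error term, and the cause of the differences was not tested. No filter (101), a filter at the 60th percentile (110), quantile normalization (101), robust variances (104) and the most variable probe set per gene (95) stayed within 1.5 times. The genotype difference had 0 calls in every fit that held it, with 199 to 1021 genes at an unadjusted p under 0.05. Without the 10 h array of embryo 1 labelled knock-out, an alternative chosen after seeing the data, the replicate block fit called 104 genes, 36 of them at least 2-fold, 127 in wild type and 0 for the genotype difference; Zfp566 (adjusted p = 0.0671) and Nr4a1 (0.0584) lost their calls, and Nfkbiz, Ch25h and Pdgfb gained one. Over 77 named genes and 15 alternatives no called change reversed its sign: 1028 of 1152 values kept their side of the threshold, and 124 lost the call. Of the 77 genes 54 were called in the main fit and only these had a call to lose, so the share kept is lower among them. Of the 101 genes 24 were called in every alternative that gave a value.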
